A study of Mus musculus with 50 samples.

Results

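The circadian clock genes Arntl, Clock, Per1, Per2, Per3, Cry1, Cry2, Nr1d1, Nr1d2 and Dbp were followed across mammary gland (MG) tumors by their symbols in the RPKM table. All 10 were present among the 37701 genes of the table, and all 10 were among the 16733 genes tested, which averaged 0.5 RPKM or more over the tumors. RPKM is the number of reads of a gene scaled to its length and to the size of the library. The tumors came from female p53R270H/+WAPCre mice, in which Cre driven by the WAP promoter switches on a heterozygous p53 mutation in the mammary gland, and every group shared this genotype. The mice were 8 weeks old when treatment started and were injected every other day, subcutaneously, until a tumor had formed, with vehicle (tumors titled untreated in the labels), insulin, glargine (a long-acting insulin analogue), X10 (an insulin analogue with high affinity for the IGF1 receptor) or IGF1. There were 10 tumors per group and 50 in all, each taken 24 h after the last injection at a volume of 1 cm3. The authors had selected them as EMT-like tumors with a latency near their group's median. Doses and the time of day at sampling were not given in the sources used here, so the clock phase at which each tumor was taken is unknown.

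The molecular clock is a feedback loop of transcription. ARNTL (also called BMAL1) and CLOCK form an activator that binds E-boxes and switches on the Per, Cry, Nr1d and Dbp genes. PER and CRY proteins then inhibit the activator, the NR1D (REV-ERB) receptors repress Arntl through ROR elements, and DBP, with its relatives TEF and HLF, activates genes that carry D-boxes, among them Per genes. In tissues with a running clock Arntl therefore peaks in another part of the day than Dbp, Nr1d1 and Per3, and Cry1 peaks later than these. In a set of tissues collected at different clock phases such genes vary together or against each other.

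The promoter letters that belong to this loop are shown for the members in which they were found, since the results below turn on which members moved together. RefSeq promoter windows of 300 bases, from 250 bases before to 50 after the start (build GRCm38.p6), were given for 9 of the 10 members, with 13 windows in all, and Per2 had no entry. Both strands were searched for the E-box CACGTG, the E prime box CACGTT, the D-box TTATGTAA, the ROR element TAGGTCA and the cyclic AMP response element TGACGTCA. Capitals mark the matched letters, and a match to CACGTT on the opposite strand reads AACGTG.
Per3, chr4:151044791-151044895, minus strand, both D-boxes: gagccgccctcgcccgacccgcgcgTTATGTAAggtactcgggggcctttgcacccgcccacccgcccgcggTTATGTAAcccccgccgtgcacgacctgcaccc
Cry1, chr10:85185084-85185158, minus strand, E prime box and E-box: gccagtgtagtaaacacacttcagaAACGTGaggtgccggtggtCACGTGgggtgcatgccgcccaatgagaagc
Nr1d1, chr11:98775378-98775430, minus strand, E prime box: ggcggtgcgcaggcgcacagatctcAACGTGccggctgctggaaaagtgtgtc
Per1, chr11:69098758-69098813, plus strand, E-box: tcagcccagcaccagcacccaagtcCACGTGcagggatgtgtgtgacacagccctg
Cry2, chr2:92434205-92434260, minus strand, E prime box: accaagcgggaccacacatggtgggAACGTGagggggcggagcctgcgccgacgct
Arntl, chr7:113207530-113207558, plus strand, ROR element: aaggcagaaagTAGGTCAgggacggaggt

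In Per3 the D-boxes began at bases -205 and -158 from the start, and in Cry1 the E prime box began at -79 and the E-box at -60. The D-box occurred in 0.938% of all 32851 promoter windows, the E-box in 7.15%, the E prime box in 4.68%, the ROR element in 2.61% and the cyclic AMP response element in 1.79%. Among the 13 member windows, 1 held a D-box, 2 an E-box, 3 the E prime box, 1 the ROR element and 0 the cyclic AMP response element. These are matches of letters and not binding sites. The windows of Clock, Nr1d2 and Dbp held none of the 5 motifs, which says only that these letters were not in these windows.

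Before the levels, the tumors themselves were compared. Library size, recovered from the RPKM steps, was 26.6 to 51.9 M reads, with group medians between 35.4 (X10) and 44.0 (vehicle). Mesenchymal markers (Vim, Twist1, Zeb1, Snai1, Cdh2 and Pdgfrb) summed to between 1173 and 6304 RPKM and epithelial markers (Cdh1, Epcam, Krt8, Krt18, Krt14, Krt5 and Cldn4) to between 9.91 and 5600, so the epithelial content differed widely between tumors. Skeletal muscle markers ranged from 3.00 to 4439 RPKM. In bulk tumors such as these, fewer cells of a type and less RNA per cell cannot be told apart. The sequence sample ids in the labels run in group order, and the labels do not say whether they follow an order of preparation or sequencing. Nothing in the sources used here says that the tumors of a group came from separate cages or cohorts, and the p-values measure the spread between tumors.

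All 10 clock genes were well measured. Per2, the lowest in mean RPKM, had 180 to 1280 reads per tumor, and Clock had 637 to 4334. At the median of 486.5 reads for Per2, counting alone gives an SD of 0.07 on the log2 scale, whereas the observed SD over tumors was 0.45. For Dbp these values were 0.06 and 0.57, and for the other 8 members the observed SD was also larger than the counting SD. Among these 8 was Cry2, which had the lowest median of all members, 422 reads. Its counting SD was 0.07 and its observed SD 0.34. The spread described below was therefore larger than counting error in every member. The per-gene SD was not unusual among the 16733 genes tested: that of Dbp lay at the 72.4th percentile and that of Cry2 at the 28.9th.

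The highest mean levels per length were those of the repressor and output genes. Nr1d1 (mean 22.5 RPKM ± 8.65, SD, n = 50), Nr1d2 (19.0 ± 5.31) and Dbp (17.5 ± 8.10) stood above Per1 (9.37 ± 3.49), Clock (8.04 ± 2.67) and Cry1 (6.74 ± 1.94). Cry2 (4.91 ± 1.26), Arntl (4.88 ± 1.44), Per3 (4.82 ± 1.34) and Per2 (2.42 ± 0.944) were lower. The order depends on the gene lengths that the authors divided by, which for Dbp came out at 912 bases.

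**Figure D1:**
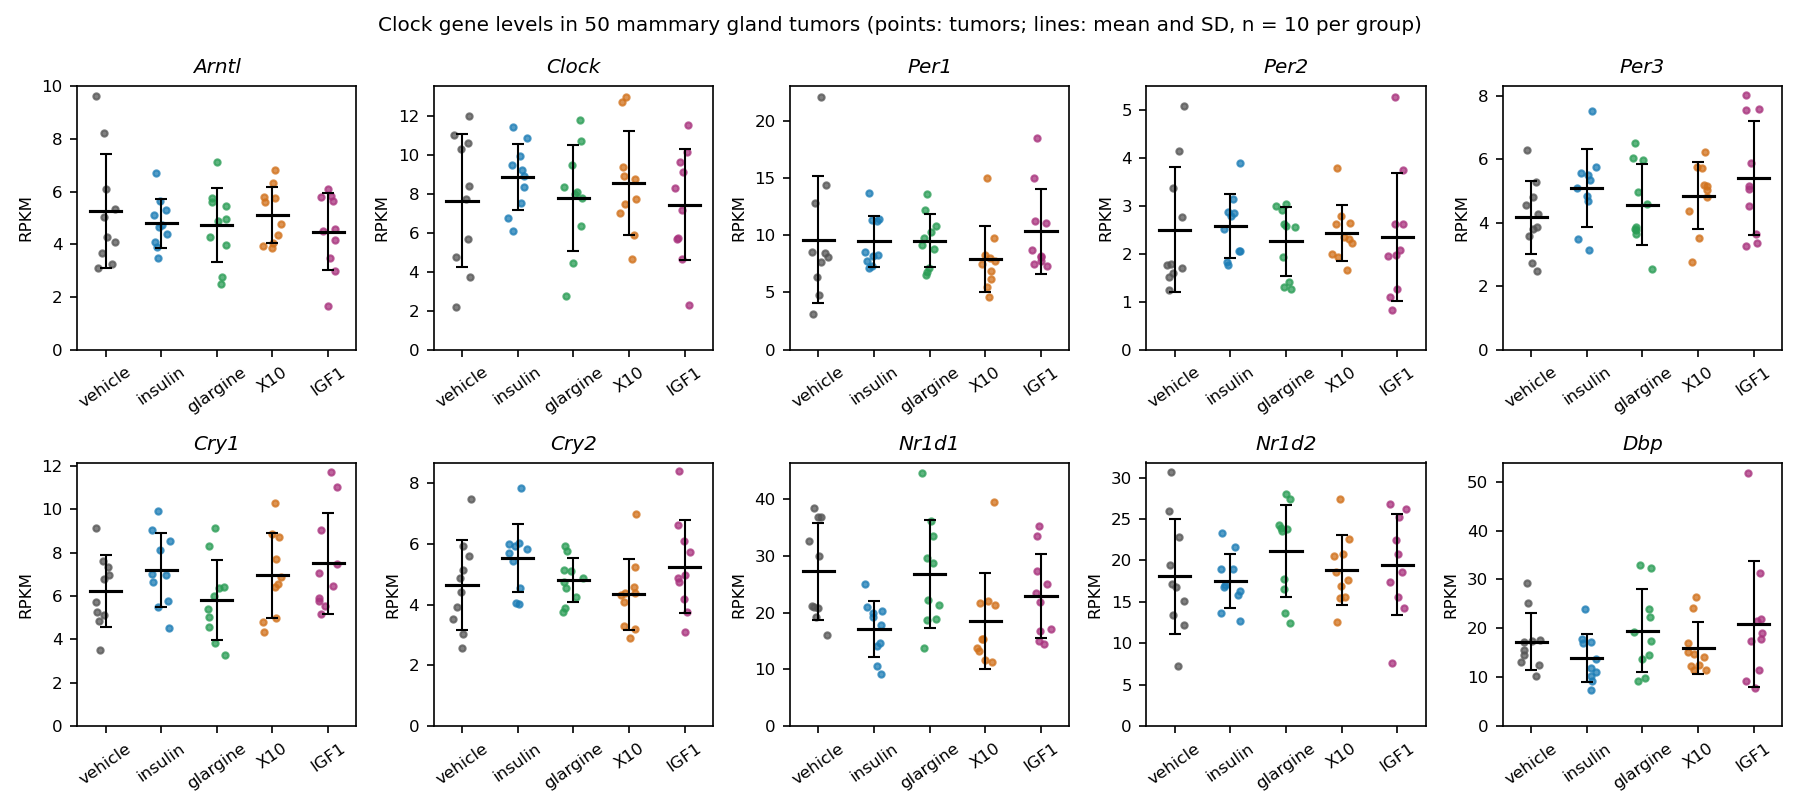
RPKM (vertical axis, linear, starting at 0) of the 10 clock genes in each tumor, by treatment group. Points are tumors, the horizontal line is the mean and the bar the SD (n = 10 per group); the groups overlap in every panel, and the tumor at 51.7 RPKM of Dbp belongs to the IGF1 group.

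The first question was whether chronic insulin, glargine, X10 or IGF1 exposure changed the clock genes against vehicle. None of the 10 passed the threshold (limma on log2(RPKM + 0.5), Benjamini-Hochberg adjusted p under 0.05 over all 16733 genes). The count was 0 of 10 for insulin, where 0% of all genes passed, and 0 of 10 for glargine, where 0% passed as well. It was 0 of 10 for X10, beside 0.0657% of all genes, and 0 of 10 for IGF1, beside 0.00598%. At an unadjusted p under 0.05 the counts were 1 of 10, 0 of 10, 1 of 10 and 0 of 10, and over all genes 1865, 1043, 1841 and 1479. The 4 comparisons share the vehicle tumors.

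In the paper insulin and glargine activated the IGF1 receptor only mildly. The study also set the X10 and IGF1 tumors, whose compounds have a high affinity for this receptor, against the vehicle, insulin and glargine tumors. Here 0 of 10 clock genes passed, beside 0.155% of all genes. In the test for any difference between the 5 groups 0 of 10 passed, beside 0.102% of all genes, and 1 of 10 had an unadjusted p under 0.05, beside 13.1% of all genes. These shares over all genes are so low that a count of 0 among 10 genes does not set the clock genes apart.

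Gene positions below are those of GENCODE M21 on GRCm38. Nr1d1 (chr11:98767932-98775333), which encodes the heme-binding repressor REV-ERBα, was the member with the smallest p for insulin, for X10 and for any difference. In vehicle tumors it ranged from 16.0 to 38.3 RPKM around a median of 25.5. In insulin tumors it ranged from 9.13 to 25.0 (median 18.5), and in X10 tumors from 11.3 to 39.4 (median 15.4). Insulin and X10 tumors were lower on average, but both overlapped with vehicle. Glargine tumors (13.8 to 44.6, median 25.5) and IGF1 tumors (14.5 to 35.3, median 22.6) lay over much of the vehicle range. The log2 difference was -0.65 (SE 0.21, adjusted p = 0.301) for insulin and -0.58 (SE 0.21, adjusted p = 0.308) for X10. For glargine it was -0.04 (95% interval -0.47 to 0.38) and for IGF1 -0.24 (-0.67 to 0.18). Treatment group accounted for 25.7% of the variance of Nr1d1, against a median of 9.29% over the genes tested, and the adjusted p for any difference was 0.228 (limma).

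Nr1d1 shares 263 exon bases with Thra, the thyroid hormone receptor gene on the opposite strand, in the GENCODE M21 annotation. Thra had a mean of 93.0 RPKM and correlated with Nr1d1 over the 50 tumors (r = 0.40, given as a description). The authors counted reads per gene with the default options of HTSeq, which assign reads by strand. They made the RPKM table from read counts with DEXSeq, and the methods do not say plainly whether these are the same counts. Without strand the reads of these bases cannot be told apart.

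Dbp (chr7:45705088-45710203), the D-box activator that follows ARNTL and CLOCK closely in other tissues, had the widest spread of the members on the log2 scale (SD 0.57). It ranged from 10.2 to 29.3 RPKM in vehicle tumors (median 16.3), from 7.40 to 23.9 in insulin tumors (median 12.8) and from 9.20 to 33.0 in glargine tumors (median 18.2). X10 tumors lay between 11.4 and 26.4 (median 14.4). IGF1 tumors held the widest range, 7.73 to 51.7 (median 18.4). The groups overlapped, and the log2 differences from vehicle ran from -0.31 (SE 0.25) for insulin to 0.13 (SE 0.25) for IGF1. Dbp shares 539 exon bases with Sphk2 on the opposite strand, a sphingosine kinase gene with a mean of 11.2 RPKM and r = 0.46 with Dbp.

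Among the activators, Arntl (chr7:113207465-113314126) was between 3.12 and 9.62 RPKM in vehicle tumors (median 4.65) and between 1.64 and 6.11 in IGF1 tumors (median 4.54). Its group means lay between 4.48 (IGF1) and 5.27 (vehicle). Clock (chr5:76209868-76304792) had group means between 7.42 (IGF1) and 8.85 (insulin). The largest log2 differences from vehicle were -0.20 (SE 0.18, 95% interval -0.57 to 0.16) for Arntl under IGF1 and 0.32 (SE 0.24, -0.17 to 0.81) for Clock under insulin, and both intervals span 0.

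The Per genes encode the inhibitors that pair with CRY. Per1 (chr11:69095217-69109960), which also responds quickly to growth and stress signals, had group means from 7.94 RPKM in X10 to 10.3 in IGF1 tumors and a vehicle range of 3.13 to 22.1. Per2 (chr1:91415982-91459324) had means from 2.26 to 2.57. Per3 (chr4:151003652-151044665) had means of 4.17 in vehicle and 5.41 in IGF1 tumors, with ranges of 2.47 to 6.29 and 3.27 to 8.03. Its log2 difference of 0.32 (95% interval -0.02 to 0.65) for IGF1 was the largest rise among the Per genes and had an adjusted p of 0.598 (limma).

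The cryptochromes are the stronger inhibitors of the loop. Cry1 (chr10:85131700-85185064) had means from 5.83 RPKM in glargine to 7.51 in IGF1 tumors, and Cry2 (chr2:92403646-92434043) from 4.34 in X10 to 5.54 in insulin tumors. Nr1d2 (chr14:18204054-18239127), the second REV-ERB gene, had means from 17.5 in insulin to 21.1 in glargine tumors. The 10 intervals for glargine lay between -0.48 and 0.66 on the log2 scale.

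When the groups were put in order of their mean for each gene, neighbouring groups were compared by permutation of the log2 values. There were 40 such comparisons, the smallest unadjusted p was 0.13 (insulin above X10 for Per1), and every adjusted p was 0.997. The order was taken from the same values, so neighbours lie close by construction. These tests therefore say nothing about groups farther apart in an order. The median log2 difference over the 10 members was 0.12 (insulin), 0.08 (glargine), 0.04 (X10) and 0.13 (IGF1), beside medians over all genes tested of 0.03, 0.02, -0.03 and 0.02. The sign of these small medians depended on the fit: with the cell type scores as covariates they were 0.065, -0.028, -0.0052 and -0.028, and with the length contrast as a covariate that of X10 was -0.055.

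**Figure D2:**
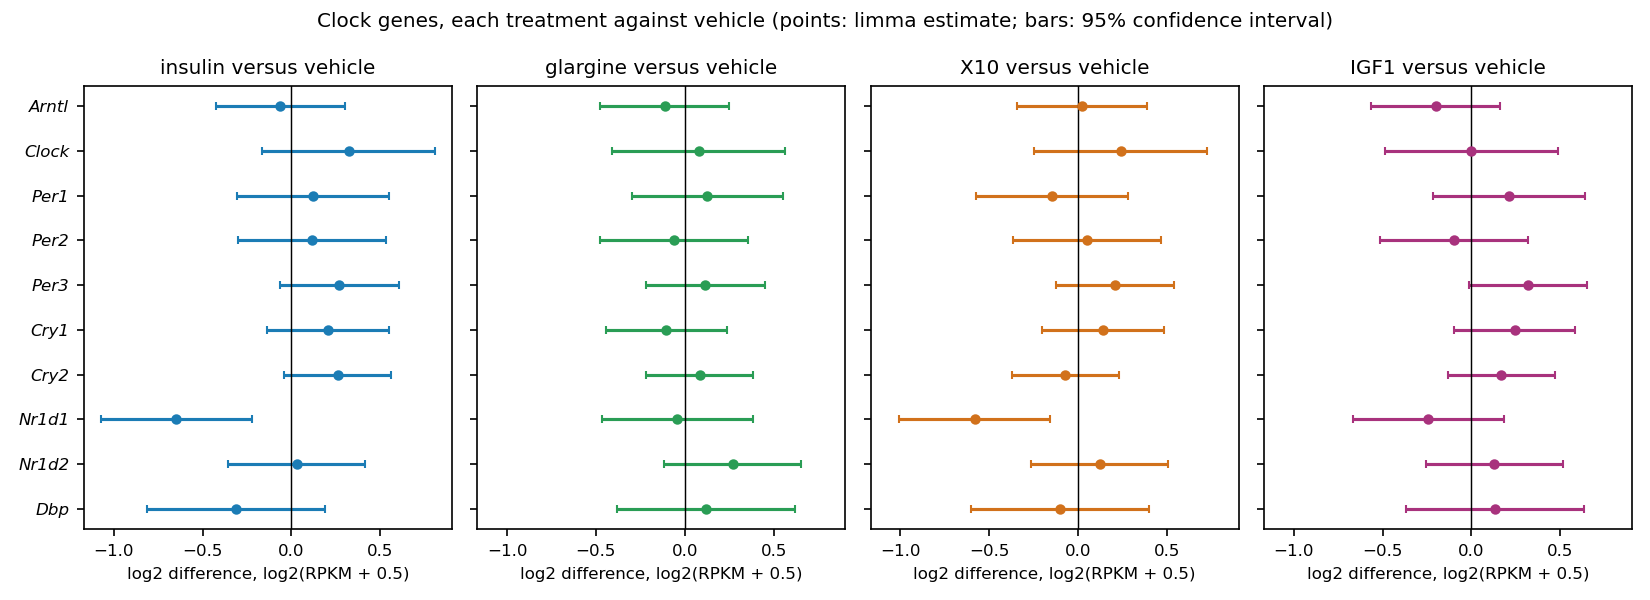
Log2 difference from vehicle in log2(RPKM + 0.5) (horizontal axis) for each clock gene, in 1 panel per treatment. Points are limma estimates and bars 95% confidence intervals before adjustment; those of Nr1d1 for insulin (-1.07 to -0.22) and X10 (-1.01 to -0.16) leave out 0, and the others span it.

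Other genes of the pathway gave the same count. Of 22 further clock genes, all tested, 0 passed in each of the 6 comparisons. At an unadjusted p under 0.05, 2 were lower for insulin, 1 was lower for glargine and 2 were lower for X10, while 2 were higher and 2 lower for IGF1. Over all genes 11.1%, 6.23%, 11.0% and 8.84% had a p this low in these 4 comparisons, so the counts for insulin, glargine and X10 were near the background. Ciart (listed as Gm129), which encodes a repressor of the CLOCK complex, had the smallest p of the list. Its mean was 3.15 RPKM ± 1.31 in vehicle tumors (1.80 to 5.47) and 5.97 ± 2.21 in IGF1 tumors (3.33 to 8.73), with a log2 difference of 0.83 (SE 0.24, adjusted p = 0.277, limma). The ranges overlapped between 3.33 and 5.47.

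Csnk1d, the casein kinase that marks PER proteins for decay, was at 338 RPKM ± 51.5 in vehicle tumors and between 267 and 288 on average in the other groups. Its log2 differences were -0.24 under insulin, -0.33 under glargine, -0.25 under X10 and -0.26 under IGF1, with adjusted p-values from 0.394 to 0.789 in limma. Bhlhe40, an E-box repressor, had a difference of -0.52 (SE 0.23) for insulin. Usp2, a deubiquitinase and clock output, had differences of -0.52 (SE 0.23) for X10 and -0.40 (SE 0.15, adjusted p = 0.293, limma) for X10 and IGF1 against the other groups. Tef, the relative of Dbp, had a difference of 0.31 (SE 0.13) for IGF1. Npas2, which can stand in for CLOCK, had -0.38 (SE 0.21) for X10 and IGF1 against the other groups.

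The second question was whether the clock genes varied together from tumor to tumor. All 45 pairs were tested over the 50 tumors with Pearson's r on log2(RPKM + 0.5) and a two-sided permutation test of 100000 resamples, adjusted over the pairs. Past the threshold were 7 positive pairs (15.6% of 45) and 2 negative pairs (4.44%). Every such pair had an absolute r of at least 0.38, and of all pairs of the 16733 genes 7.39% had an r this high and 4.03% an r this low. Without the vehicle tumor of lowest Clock 4 positive pairs and the same number of negative pairs, 2, passed of the 45. The background was not computed again without this tumor, so the smaller count has no share of all gene pairs beside it. The share of negative pairs was close to its background. This is a description, since the pairs share genes, libraries and tissue composition.

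Dbp, Nr1d1 and Cry1 formed the clearest group. Dbp and Nr1d1 rose and fell together (r = 0.56, permutation p = 1e-05, the smallest that these resamples can give, adjusted p = 0.00045, rho = 0.57). Cry1 ran against both, with r = -0.53 to Dbp (permutation p = 9e-05, adjusted p = 0.00101, rho = -0.53) and r = -0.50 to Nr1d1 (permutation p = 0.00026, adjusted p = 0.00234, rho = -0.48). The adjusted p-values of rho were 0.00045, 0.00113 and 0.00563 by permutation. With the 2 tumors farthest from the median left out the values of r were 0.53, -0.54 and -0.47.

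The tumors show this directly. Glargine tumor 69 had 32.3 RPKM of Dbp, the highest Nr1d1 of all 50 (44.6) and the lowest Cry1 (3.26). The IGF1 tumor with the least Dbp had 7.73 RPKM, beside 17.1 of Nr1d1 and 11.0 of Cry1. Insulin tumor 37 had 10.2 of Dbp, 10.5 of Nr1d1 and 9.92 of Cry1. A tumor that departed from the pattern was the X10 tumor with the lowest Nr1d1 of its group, 11.3, which had 24.2 of Dbp.

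These 3 relations did not rest on the treatment groups. With values centred within groups r was 0.54 for Dbp and Nr1d1, -0.54 for Cry1 and Dbp, and -0.46 for Cry1 and Nr1d1, with adjusted p-values of 0.0024, 0.0024 and 0.00906 (permutation within groups). Dbp and Nr1d1 were positively correlated in all 5 groups taken alone (r from 0.34 in vehicle to 0.73 in glargine). Cry1 and Dbp were negatively correlated in 4 of 5 groups (r from -0.82 in glargine to -0.39 in X10), with r = 0.10 in vehicle. For Cry1 and Nr1d1 it was also 4 of 5, with r = 0.18 in vehicle. Whether vehicle differs from the other groups was not tested. After the scores of muscle, adipocyte, epithelial, leukocyte and endothelial markers were taken out, r was 0.63, -0.54 and -0.51.

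**Figure D3:**
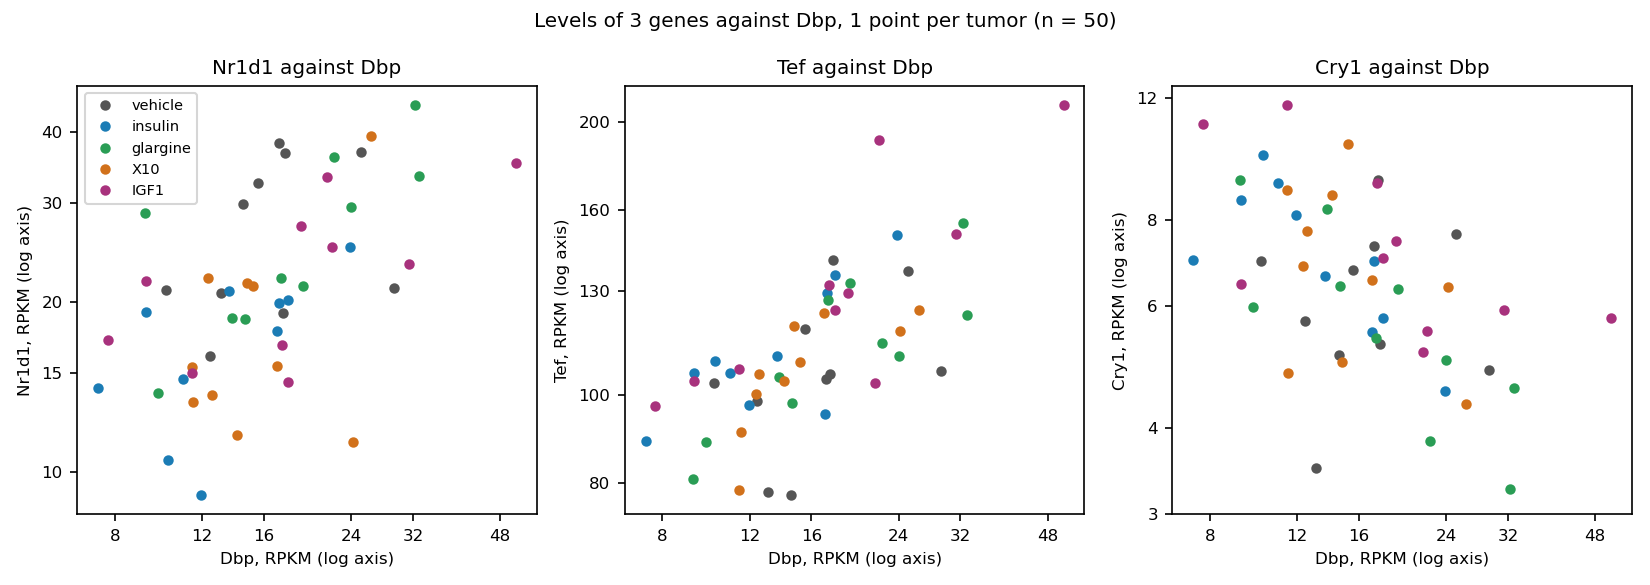
Nr1d1, Tef and Cry1 (vertical axes) against Dbp (horizontal axes), in RPKM on log axes, with 1 point per tumor coloured by group (n = 50). Nr1d1 and Tef are higher where Dbp is higher (r = 0.56 and 0.71) and Cry1 is lower (r = -0.53).

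Tef, the PAR-domain relative that binds the same D-box as DBP, was the gene most like Dbp among the 15112 other genes that averaged 1 RPKM or more (r = 0.71, or 0.75 centred within groups). These likeness values are descriptions over 50 tumors. Tef ranged from 77.6 to 208 RPKM and was highest in the IGF1 tumor that also had the highest Dbp. The next genes by likeness to Dbp were Smpd1 and Hexa (both r = 0.66), which encode lysosomal enzymes, Pltp (0.65), a phospholipid transfer protein, and Serpinb8 (0.64). Nr1d1 stood at place 31 from the top and Cry1 at place 13 from the bottom. Among the 5 most negative were Frk (-0.63), a tyrosine kinase, Gm9103, Adat1 (both -0.60) and Gm12603 (-0.59). Hlf, the other PAR-domain gene, had r = 0.13 with Dbp.

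Per3, with its pair of D-boxes in the promoter window, was correlated with Dbp (r = 0.42, permutation p = 0.00285, adjusted p = 0.0183, rho = 0.37 with adjusted p = 0.0437, r = 0.39 without the 2 farthest tumors) and, as a description, with Tef (r = 0.63). Centred within groups, r with Dbp was 0.48, and it was positive in all 5 groups (0.06 in X10 to 0.68 in IGF1). The IGF1 tumor with the highest Dbp carried part of it: without this tumor r was 0.34 and the adjusted p 0.0744 by permutation. That tumor was the highest of the 50 in Dbp (51.7 RPKM), Per3 (8.03), Per2 (5.27), Tef (208) and Ciart (8.73) and the lowest in Npas2 (1.61).

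The negative correlations of Arntl with its targets Dbp and Nr1d1 did not pass the test. With Dbp r was -0.23 (permutation p = 0.111, adjusted p = 0.277, rho = -0.21, -0.21 without the 2 farthest tumors), and with the repressor Nr1d1 it was -0.09 (permutation p = 0.52, adjusted p = 0.71, rho = -0.10, -0.15 without the 2 farthest tumors). With Nr1d2 it was -0.01 (adjusted p = 0.98 by permutation), and this pair passed as negative once a length-related measure of the tumors, described further on, was taken out (r = -0.37, adjusted p = 0.0386 by permutation). In the 5 groups r of Arntl with Dbp ran from -0.58 in insulin to 0.14 in vehicle tumors. The genes most like Arntl were Fpgt (0.61), Cdk17 (0.60), Snx18 (0.60), Gabpb1 (0.59) and Tmem87b (0.58), and the most unlike were Dym (-0.60), Rfc3 (-0.58), Anapc5 (-0.56), Arl6ip4 (-0.54) and Gtf3a (-0.53). None of these 10 is in the clock lists. Of the clock genes Nampt, which makes NAD and is a known ARNTL target, stood nearest to Arntl, at place 91 (r = 0.49).

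Of 5 further pairs past the threshold, 4 held Clock. It was correlated with Nr1d2 (r = 0.67, permutation p = 2e-05, adjusted p = 0.00045, rho = 0.51), Per2 (r = 0.53, permutation p = 5e-05, adjusted p = 0.00075, rho = 0.44), Per3 (r = 0.40, permutation p = 0.00328, adjusted p = 0.0185, rho = 0.31) and Arntl (r = 0.38, permutation p = 0.00637, adjusted p = 0.0319, rho = 0.27). By likeness to Clock among the 15112 other genes, Nr1d2 stood at place 901, Per2 at 1861, Per3 at 2916 and Arntl at 3134. Many genes outside the clock lists were thus more like Clock than these 4 were. Per3 and Nr1d2 were correlated as well (r = 0.44, permutation p = 0.00141, adjusted p = 0.0106, rho = 0.33). With the 2 tumors farthest from the median left out, r of these 5 pairs was 0.49, 0.46, 0.27, 0.37 and 0.33. By rho the first pair (adjusted p = 0.00225 by permutation) and Clock with Per2 (0.0157) passed, and the other 3 had adjusted p-values of 0.143, 0.201 and 0.0955. Per1 with Nr1d1 and Per2 with Per3, not past the threshold by r, passed by rho (adjusted p = 0.0412 and 0.0408 by permutation). With the 5 cell type scores taken out these same 3 pairs did not pass (Clock and Per3 r = 0.32, adjusted p = 0.0741, Arntl and Clock 0.33, 0.0699, Per3 and Nr1d2 0.33, 0.0699, by permutation). The same step brought 4 other positive pairs past the threshold, Per1 with Dbp (r = 0.40, adjusted p = 0.0269), Per2 with Per3 (0.37, 0.0471) and with Nr1d2 (0.36, 0.0471), and Per1 with Nr1d1 (0.36, 0.049995), all by permutation. Without the vehicle tumor of lowest Clock the 3 pairs that did not pass by rho again did not pass (Clock and Per3 adjusted p = 0.106, Arntl and Clock 0.0848, Per3 and Nr1d2 0.0766, by permutation). Clock with Nr1d2 (r = 0.59) and with Per2 (0.54) did. Centred within groups, Arntl and Clock did not pass (r = 0.38, adjusted p = 0.0838 by permutation within groups), and Per1 with Nr1d1 did (r = 0.38, adjusted p = 0.0383, against r = 0.35 and 0.0536 by permutation before).

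**Figure D4:**
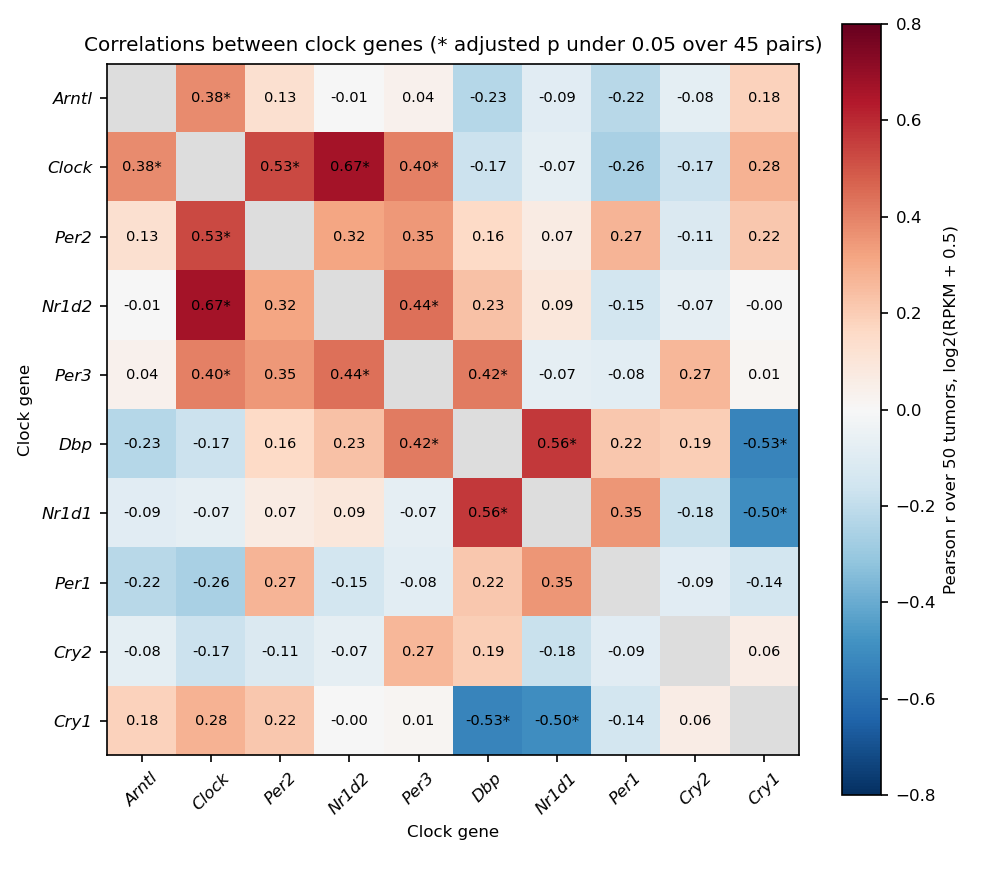
Pearson r over 50 tumors in log2(RPKM + 0.5) for each pair of clock genes, from blue (negative) to red (positive). Asterisks mark the 9 pairs with an adjusted p under 0.05, among them Clock with Nr1d2 (0.67) and Dbp with Cry1 (-0.53).

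Clock and some of its partners moved with a length-related measure of the tumors. For each tumor a length contrast was computed, the median log2 level of genes above the upper quartile of length (2613 bases) minus that of genes below the lower quartile (751.5 bases), each gene centred over tumors. Clock, with a length of 7478 bases, followed it with r = 0.82 (permutation p = 1e-05, the smallest that these resamples can give, adjusted p = 0.0002 over 40 relations of 10 genes with 4 measures, rho = 0.65, r = 0.74 without the 2 farthest tumors). Nr1d2 (r = 0.60), Arntl (0.44) and Per3 (0.39) followed it too, and Per1 ran against it (-0.39), with adjusted p-values of 0.0002, 0.0224, 0.0401 and 0.0401 by permutation. Their rho values were 0.42, 0.32, 0.28 and -0.32, with adjusted p-values from 0.0529 to 0.179. Centred within groups, Clock and Nr1d2 passed (both adjusted p = 0.0002 by permutation) and Arntl, Per3 and Per1 did not (each 0.0895). Without the 3 tumors of lowest contrast r was 0.65 for Clock, 0.31 for Nr1d2, 0.26 for Arntl, 0.23 for Per3 and -0.27 for Per1. Dbp (-0.19), Nr1d1 (-0.28), Cry1 (0.16), Cry2 (-0.15) and Per2 (0.36) did not pass. How many of all tested genes reach such an r was not computed. The contrast is built from the levels of long and short genes, so these results do not set the clock genes apart. Lengths were 5837 bases for Per2, 4253 for Per3, 4022 for Per1, 3171.5 for Nr1d2, 3014 for Cry1 and 2904 for Arntl. Cry2 (2121), Nr1d1 (1751) and Dbp (912) were shorter. The values of r did not follow the order of length. Library size, another of the 4 measures, had r between -0.16 and 0.19 with the members. Of the members, Nr1d2 followed the mesenchymal marker score (r = 0.41, adjusted p = 0.0322 by permutation, rho adjusted p = 0.159, r = 0.26 without the 2 farthest tumors, and r = 0.38 with adjusted p = 0.0895 centred within groups).

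With the length contrast taken out, r fell from 0.38 to 0.04 for Arntl and Clock (adjusted p = 0.884 by permutation), from 0.40 to 0.17 for Clock and Per3 (0.478) and from 0.44 to 0.28 for Per3 and Nr1d2 (0.162). Clock with Nr1d2 (0.39, adjusted p = 0.0334) and with Per2 (0.44, adjusted p = 0.0114) still passed. The values of the Dbp group were 0.54 for Dbp and Nr1d1, -0.51 for Cry1 and Dbp, and -0.48 for Cry1 and Nr1d1, and Dbp with Per3 was at 0.54. Another 4 pairs, not past the threshold before, passed by permutation with the contrast taken out. Per1 and Per2 went from 0.27 to 0.48 (adjusted p = 0.00495), Nr1d2 and Dbp from 0.23 to 0.44 (0.00968), Per3 and Cry2 from 0.27 to 0.36 (0.0467) and Arntl and Nr1d2 from -0.01 to -0.37 (0.0386).

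A set of 3 tumors lay apart on this contrast, a vehicle (-0.50), a glargine (-0.52) and an IGF1 tumor (-0.60), with the next at -0.30 and the highest at 0.36. They held the 3 lowest levels of Clock, which were 2.19, 2.73 and 2.27 RPKM. Nr1d2 was at 7.24, 12.5 and 7.62 in them, and Nr1d1 at 29.9, 29.5 and 33.4. Without these 3 tumors r was 0.43 for Clock and Nr1d2 and 0.41 for Clock and Per2 (adjusted p = 0.0173 and 0.0277 by permutation), whereas Arntl and Clock (0.18), Clock and Per3 (0.24) and Per3 and Nr1d2 (0.30) did not pass. Dbp and Nr1d1 kept r = 0.56. Of the 4 pairs that passed with the contrast taken out, Per1 and Per2 also passed without these tumors (r = 0.44, adjusted p = 0.0173 by permutation), and Nr1d2 with Dbp (0.38), Per3 with Cry2 (0.25) and Arntl with Nr1d2 (-0.31) did not.

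**Figure D5:**
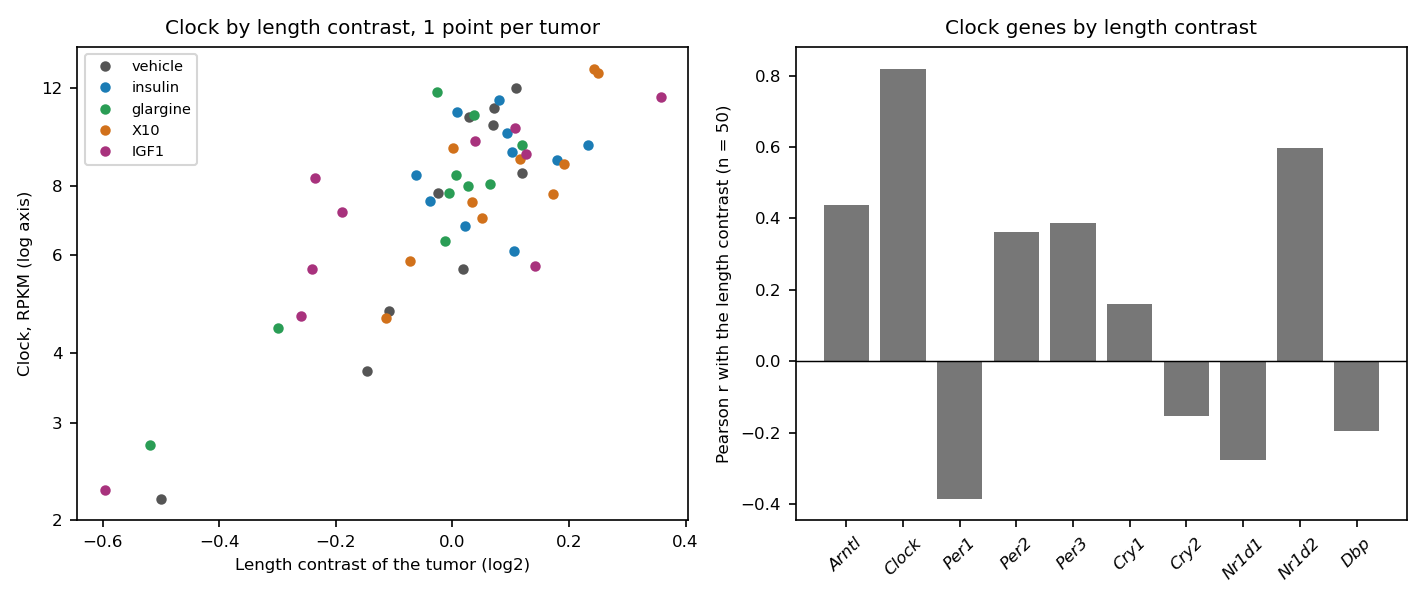
Left, Clock in RPKM (log axis) against the length contrast of each tumor (log2), with 1 point per tumor coloured by group; the 3 tumors with the lowest contrast have the lowest Clock. Right, Pearson r with the length contrast for each clock gene (n = 50), highest for Clock at 0.82 and lowest for Per1 at -0.39.

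The genes most like each of the other members were named by the same rule. For Clock it was Lmbrd2 (r = 0.93), for Nr1d2 Tbc1d8b (0.78) and for Per1 Ell (0.73), a transcription elongation factor. For Nr1d1 it was Uap1l1 (0.71), for Cry1 Gm9855 (0.71), for Per2 Cldn25 (0.66), for Per3 Dclre1c (0.65), a DNA repair nuclease, and for Cry2 Ndn (0.62), the imprinted growth regulator necdin. None of these 8 belongs to the clock lists. Tef was the clock gene closest to any member.

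The members were last set against scores of 8 marker lists, in 80 correlations adjusted together. Past the threshold were 10 of 80 (12.5%), beside 10.0% of the same correlations over all tested genes with an absolute r at least as high, a share close to the background. By Spearman's rho 0 of 80 passed. Centred within groups 8 of 80 passed, 6 of these 10 and in addition Cry2 with the adipocyte markers (r = 0.49, adjusted p = 0.004 by permutation within groups) and Per1 with the endothelial markers (-0.43, 0.0403). The largest was Per1 with the immediate early genes Fos, Egr1, Jun, Atf3, Ier2 and Nr4a1 (r = 0.55, permutation p = 6e-05, adjusted p = 0.0048, rho = 0.41, r = 0.53 without the 2 farthest tumors), and 0.49% of all tested genes had a larger absolute r with this score. Per1 ran against the proliferation markers (r = -0.46, adjusted p = 0.0276 by permutation), where 11.5% of all tested genes had a larger absolute r. Per3 ran against the immediate early genes (r = -0.44, adjusted p = 0.0315 by permutation), where this share was 5.07%.

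Per2 followed the glucocorticoid response genes Fkbp5, Tsc22d3, Zbtb16, Sgk1 and Klf9 (r = 0.41, adjusted p = 0.0447 by permutation, rho = 0.47). Dbp and Per3 followed the leukocyte markers Ptprc, Cd3e, Cd68, Csf1r, Itgam and Cd79a (r = 0.39 and 0.38, adjusted p = 0.0447 for both by permutation). Clock and Nr1d2 followed both the endothelial (0.39 and 0.40) and the proliferation markers (0.40 and 0.40), again with an adjusted p of 0.0447 by permutation. The share of all tested genes with a larger absolute r was 3.15% for Per2, 14.0% for Dbp and 14.9% for Per3. For Clock and Nr1d2 it was 9.71% and 8.79% with the endothelial and 19.2% and 19.5% with the proliferation markers. Centred within groups, Clock with the endothelial markers (adjusted p = 0.0646 by permutation within groups), Nr1d2 with proliferation (0.0955), Per3 with leukocytes (0.113) and Per3 with the immediate early genes (0.0569) did not pass. With the 2 tumors farthest from the median of the score left out, all 10 values kept their sign, with absolute r from 0.30 (Clock with proliferation) to 0.53 (Per1 with the immediate early genes). Leukocyte markers summed to between 134 and 586 RPKM and were present in every tumor. With the 5 cell type scores taken out, Dbp and Per3 had r = 0.40.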

How the data were processed

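Per the study's methods, Poly-A RNA was read on an Ion Proton. Alignment to GRCm38 was by TopHat2 2.0.10 and Bowtie2. The authors counted reads per gene with HTSeq 0.6.1 (default options) and made the deposited RPKM values of 50 tumors with DEXSeq, with no log transformation. The authors used DESeq2 1.2.10 for their own tests, which are not used here. Here log2(RPKM + 0.5) was fitted with limma 3.58.1 (intensity trend, 5 groups, R 4.3.3) over the 16733 genes that averaged 0.5 RPKM or more, with a threshold of 0.05 on the Benjamini-Hochberg adjusted p. Correlations used 100000 permutations. Confidence intervals are at 95%.

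RPKM steps gave back whole reads for 16154 of these genes (96.5%), where at least 90% of a gene's values came out whole, and so library sizes of 26.6 to 51.9 M reads. In simulated data, 98.8% of lengths and all 50 library factors were recovered. For X10 versus vehicle, simulated over 16733 genes, 69% of changes of 1 and 93% of changes of 2 on the log2 scale were found. The read test (limma voom) called 0 to 16 genes per comparison. For the 10 members the spread between tumors was larger than the counting error.

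Members, lists and tests were chosen with earlier results of these data known. Named genes are all members, up to 2 further clock genes per comparison with the smallest p, and the genes most like each member (5 each way for Dbp and Arntl, 1 for the others). A few more were named after their values were seen: Hlf, Nampt, Sphk2 and Thra. A few genes that this rule takes in are not reported here. Tumors were grouped by their titles, and no numbers pair them across groups.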

Additional observations from a re-analysis of the deposited data

Results flagged for a closer look

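Within single groups of 10 tumors, 2 values stood farther from the rest than Dixon's 95% limit for the gap over the range of log2 values, among 50 combinations of gene and group. Chance flags about 1 in 20 groups. In X10 tumors, tumor 100 had 39.4 RPKM of Nr1d1, with the next at 22.1 (gap over range 0.467). The same tumor had the highest Dbp of its group (26.4) and the lowest Cry1 (4.33). In IGF1 tumors, tumor 160 had 7.62 RPKM of Nr1d2, with the next at 14.3 (gap over range 0.492). It also had the lowest length contrast of all tumors (-0.60).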

How the results depend on the processing

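No clock gene passed in any of 13 alternatives per comparison (12 for the test of any difference). Neither did any of the further clock genes tested, 22 in all but 2 of these alternatives, 20 with a mean of at least 1 RPKM and 21 in the read test. Over these, the smallest adjusted p of a clock gene was 0.188 for insulin, 0.482 for glargine, 0.248 for X10, 0.383 for IGF1, 0.436 for X10 and IGF1 against the others, and 0.131 for any difference. The number of all genes called moved from 0 to between 0 and 3 for insulin, from 11 to between 1 and 24 for X10, from 1 to between 0 and 1 for IGF1, from 26 to between 10 and 172 for X10 and IGF1 against the others, and from 17 to between 0 and 55 for any difference. Glargine had 0 throughout. The number of positive pairs of clock genes was 4 without the vehicle tumor of lowest Clock and 6 without the IGF1 tumor of highest Dbp, against 7, and between 5 and 9 otherwise. Negative pairs numbered 2 or 3. Dbp and Per3 had r = 0.34 without that IGF1 tumor and 0.43 without that vehicle tumor. Arntl and Nr1d1, never past the threshold, turned from -0.09 to 0.0323 with the length contrast taken out and to 0.00493 without the 3 tumors of lowest length contrast. The cause of these moves was not tested. By Spearman's rho 0 of the 80 marker correlations passed, against 10. The alternatives with the length contrast, the first principal component or single tumors left out, and both alternatives for the marker correlations, were chosen after seeing the data. No paired analysis was possible because tumor numbers do not repeat across groups.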
